A study of Mus musculus with 16 samples.

Results

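The genes described here encode the E2F transcription factors and their DP partners: E2f1 to E2f8, Tfdp1 and Tfdp2, 10 genes taken by symbol from the GENCODE annotation of GRCm38, among 21938 protein-coding genes. Chromatin accessibility at these genes was measured by ATAC-seq, which uses a transposase to tag the DNA that is accessible in nuclei, in 8 libraries of mouse splenic B cells. There were 4 libraries of CD23-Cre Brg1fl/+ and 4 of CD23-Cre Brg1fl/fl B cells on the C57BL/6 background, called fl/+ and fl/fl below. Both groups carry the CD23-Cre transgene, which acts in mature B cells, and the fl/+ group has lost 1 allele of Smarca4, the gene for the chromatin remodeler Brg1, so it is heterozygous and not wild type. All cells were activated in vitro with LPS (10 μg/mL) and IL-4 (20 ng/mL), for 72 h by the sample labels and for 96 h by the series design, with 50000 cells used per library. The labels give no age and do not say how many mice stand behind the 4 libraries of a genotype, so p-values measure the spread between libraries, which may be technical.

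The deposited lists held 6271 to 14614 peaks, and overlapping or touching peaks were joined into 16512 regions. A promoter region of a member is one that overlaps by at least 1 bp a window that begins 1000 bp before any annotated start site and ends 100 bp after it; 12 regions did so, against 9777 for all protein-coding genes. Another 5 regions lay in the body of a member or within 10 kb of it. Libraries 1 and 2, and libraries 3 and 4, of fl/+ differed by less than sampling noise in their fragments at summits (variance ratios of 0.882 and 0.770, where 1 is sampling noise). So did the 6 fl/fl pairs, at 0.813 to 0.885, while the other fl/+ pairs gave 0.935 to 1.22. The lists differ in length, so the libraries were kept apart. Values with libraries 1 and 2 joined, and likewise 3 and 4, in both genotypes are given beside the results. Joining in pairs does not cover a source shared by all 4 libraries of a genotype. Of 10 B cell markers, 6 had a promoter peak in some library, 3 of them in all 8, and 4 had none in any. The 21 T cell, myeloid, NK and erythroid markers had none in any library, and 3 of 4 fibroblast and endothelium markers had one in some library (0 to 2 per fl/+ library and 1 in each fl/fl library).

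E2F proteins bind DNA near the start sites of genes for DNA replication and mitosis and time their expression over the cell cycle. E2f1, E2f2 and E2f3 encode activators that the retinoblastoma protein holds inactive in resting cells; E2f4 and E2f5 encode factors that act mostly with pocket proteins as repressors; E2f6 encodes a repressor that does not bind pocket proteins. E2f7 and E2f8 encode atypical repressors that bind DNA without a DP partner, while the others pair with DP1 (Tfdp1) or DP2 (Tfdp2). E2F genes are themselves E2F targets in part, and resting B cells enter the cell cycle when activated. The comparison asks whether loss of the remaining Smarca4 allele alters accessibility at these genes.

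The sequences below are those at which the members' peaks stood, shown because the E2F consensus lies within or beside several of them. Capitals mark the E2F words TTTCCCGC, TTTCGCGC, TTTGCCGC and TTTGGCGC, the CHR word TTTGAA of cell cycle promoters and the CCAAT box CCAAT, on either strand. Each is read in the direction of its gene from GRCm38, outside annotated exons. The E2f3, E2f7 and Tfdp1 stretches lie before the start in the RefSeq promoter table, and those of E2f1 and Tfdp2 around the median summit of the peaks.
E2f3, upstream start: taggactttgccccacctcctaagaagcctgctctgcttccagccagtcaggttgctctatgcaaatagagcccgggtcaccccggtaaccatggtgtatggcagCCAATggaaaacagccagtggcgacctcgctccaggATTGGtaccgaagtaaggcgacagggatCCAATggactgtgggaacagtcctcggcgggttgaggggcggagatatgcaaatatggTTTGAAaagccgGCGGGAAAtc
E2f7: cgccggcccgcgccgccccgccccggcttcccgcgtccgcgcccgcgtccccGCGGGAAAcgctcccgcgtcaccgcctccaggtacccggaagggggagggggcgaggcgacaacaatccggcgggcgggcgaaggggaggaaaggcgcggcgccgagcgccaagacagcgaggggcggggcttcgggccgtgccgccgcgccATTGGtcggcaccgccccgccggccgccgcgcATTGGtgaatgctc
Tfdp1: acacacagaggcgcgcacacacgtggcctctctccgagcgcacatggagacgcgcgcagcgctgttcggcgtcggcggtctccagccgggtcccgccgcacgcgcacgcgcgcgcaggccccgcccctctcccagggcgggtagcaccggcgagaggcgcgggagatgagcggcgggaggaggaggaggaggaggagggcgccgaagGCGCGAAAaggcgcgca
E2f1: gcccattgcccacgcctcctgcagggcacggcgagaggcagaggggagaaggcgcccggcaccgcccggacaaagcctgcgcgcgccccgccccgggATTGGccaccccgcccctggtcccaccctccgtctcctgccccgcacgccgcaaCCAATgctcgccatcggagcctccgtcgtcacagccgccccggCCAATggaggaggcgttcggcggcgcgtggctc
Tfdp2: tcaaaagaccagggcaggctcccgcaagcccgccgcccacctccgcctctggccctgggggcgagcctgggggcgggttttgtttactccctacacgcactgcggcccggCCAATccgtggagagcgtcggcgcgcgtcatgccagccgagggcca

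The stretches, in the same order, are chr13:29986065-29986313 (minus strand), chr10:110745189-110745438 (plus), chr8:13338501-13338724 (plus), chr2:154569893-154570119 (minus) and chr9:96196090-96196245 (plus). The RefSeq table of 300-base promoters (250 bases before to 50 after a start, GRCm38) held 12 entries for 8 of the 10 members, all but E2f4 and E2f5. An E2F word stood in 5 of these 12 entries, from 4 genes (E2f2, E2f3, E2f7 and Tfdp1, whose 2 overlapping entries hold the same match), against 2.28% of 32544 entries of all genes. That share was not matched for GC content. Member entries ran from 39.3% to 80.7% GC, with only those of Tfdp2 below the median of 53.0% over all entries. The Tfdp2 entries, at starts 96258705 and 96259248, lie outside its peak region (chr9:96195991-96196544). The E2f1 and E2f8 entries (chr2:154569377-154569676 and chr7:48881547-48881846) do not reach the median summits of their peaks, at 154569999 and 48881157. For these 3 genes an entry without an E2F word therefore does not show that the promoter at the peak lacks one. In E2f3 a TTTCCCGC on the opposite strand began 11 bases before the upstream start, next to a CHR word at 23 bases and CCAAT boxes at 81, 109 and 145 bases. In Tfdp1 a TTTCGCGC stood on the opposite strand 43 bases before the start. In E2f7 a TTTCCCGC stood on the opposite strand 198 bases before the start, and in E2f2 a TTTGGCGC stood 40 bases after the upstream start of that table. The CHR word was found in 3 of the 12 entries (E2f2 downstream start, E2f3 upstream start and E2f8) against 17.8% of all, and the CCAAT box in 5 of 12 against 37.4%. Overlapping matches were each counted, and a match describes the letters only.

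Windows of 201 bases around the median summit gave a like description at the peaks themselves. In the 9 windows read, which leave out E2f4, E2f5 and E2f8, an E2F word stood in 2 (E2f2 upstream start and Tfdp1) against 3.28% of the 9777 promoter regions of coding genes. CCAAT boxes stood in 6 of 9 against 32.2%, with 3 each at E2f1, the E2f2 downstream start and the E2f3 upstream start, 2 each at E2f7 and Tfdp2, and 1 at the E2f2 upstream start. The CHR word was in none of the 9 and in 4.87% of all. GC content ran from 44.3% at the E2f2 upstream start to 81.1% at Tfdp1, around a median of 67.2% for all coding promoter regions.

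All 10 members had a promoter peak in at least 1 library, as had 10476 of the 21938 protein-coding genes. Of the 12 promoter regions, 7 had one in all 8 (E2f1, the E2f2 downstream start, the E2f3 upstream start, E2f5, E2f8, Tfdp1 and Tfdp2). That share stood beside 42.2% of the promoter regions of all coding genes. The 55 annotated start sites of the members had a region in 37 of their windows, from 2 of 2 for E2f1 to 6 of 15 for Tfdp2. The share of such windows over all genes was not computed. The regions were chosen by windows around annotated starts, so summits near a start were favoured. The median summit ran from 158 bp upstream of the nearest annotated start, at the E2f3 upstream start, to 39 bp downstream at E2f5. At E2f8 that nearest start was 48881041, inside the gene, while its RefSeq start was 48881596.

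**Figure D1:**
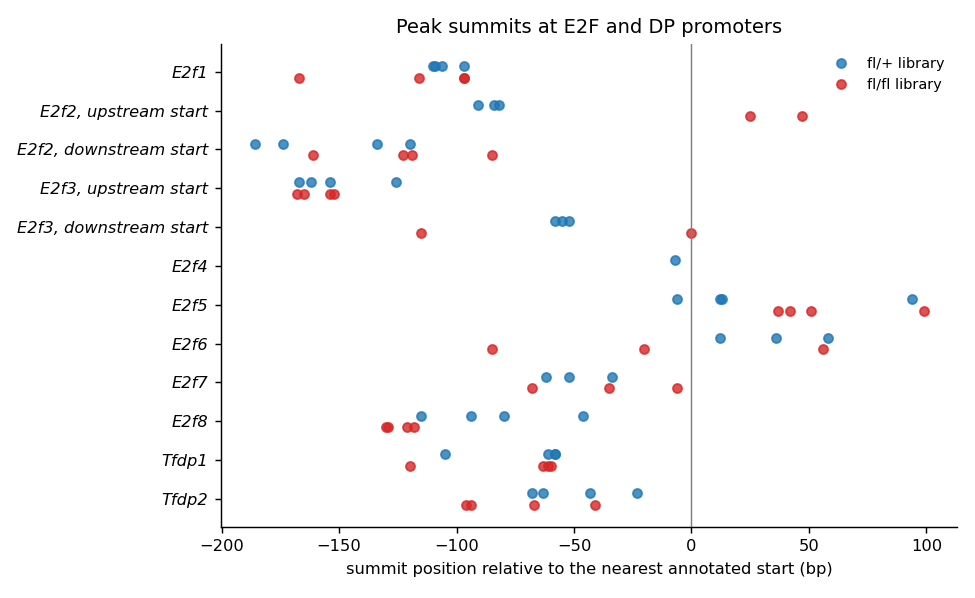
Position of the peak summit (x axis, bp from the nearest annotated start, negative is upstream) for each promoter region of the E2F and DP genes (rows), 1 point per library, blue for fl/+ and red for fl/fl. Summits lay between -186 and 99 bp of the nearest annotated start. At E2f2 (upstream start) the 3 fl/+ summits lay 82 to 91 bp upstream and the 2 fl/fl summits 25 and 47 bp downstream. Both of these fl/fl peaks rested on 10 fragments, and how often summits separate like this at other regions was not tested.

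Detection of the members did not separate the genotypes. The fl/+ libraries had promoter peaks at 9, 10, 7 and 9 of the 10 members and the fl/fl libraries at 9, 7, 9 and 9. This came to 8.75 ± 1.26 members per fl/+ library and 8.50 ± 1.00 per fl/fl library (SD, n = 4 each). The difference was -0.250 (two-sided exact permutation test, p = 1.00; the smallest p that 4 against 4 allows is 0.0286). With the libraries joined in pairs the difference was -0.250 as well, and 2 against 2 cannot go below 0.333. Among the coding genes the same measure was 37.3 ± 8.73% in fl/+ and 33.5 ± 4.36% in fl/fl (exact permutation test, p = 0.486, n = 4). Of the 12 regions, 3 had a peak in fewer fl/fl than fl/+ libraries, against 36.3% of coding promoter regions, and 0 in more, against 11.3%.

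Of the 5 promoter regions that were not detected everywhere, E2f4 was missing from 7 lists and the other 4 from 2 or 3. E2f6 and E2f7 lacked a peak in fl/+ replicate 3 and fl/fl replicate 2, the 2 shortest lists (6372 and 6271 peaks). The E2f2 upstream start and the E2f3 downstream start were missing in these 2 and in fl/fl replicate 1, which held 9216 peaks and had the highest background, 1.67 expected fragments per position. A summit at the library background had to hold at least 5 fragments in fl/+ replicate 3, 6 in fl/fl replicate 2 and 8 in fl/fl replicate 1 to be listed. At the E2f3 downstream start 3.62 to 9.83 fragments were expected where a peak was listed, so these floors need not hold there. Where a list lacks the peak, the site was not detectable with that library's reads, which does not show that it was closed. The part of depth in these patterns was not tested.

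**Figure D2:**
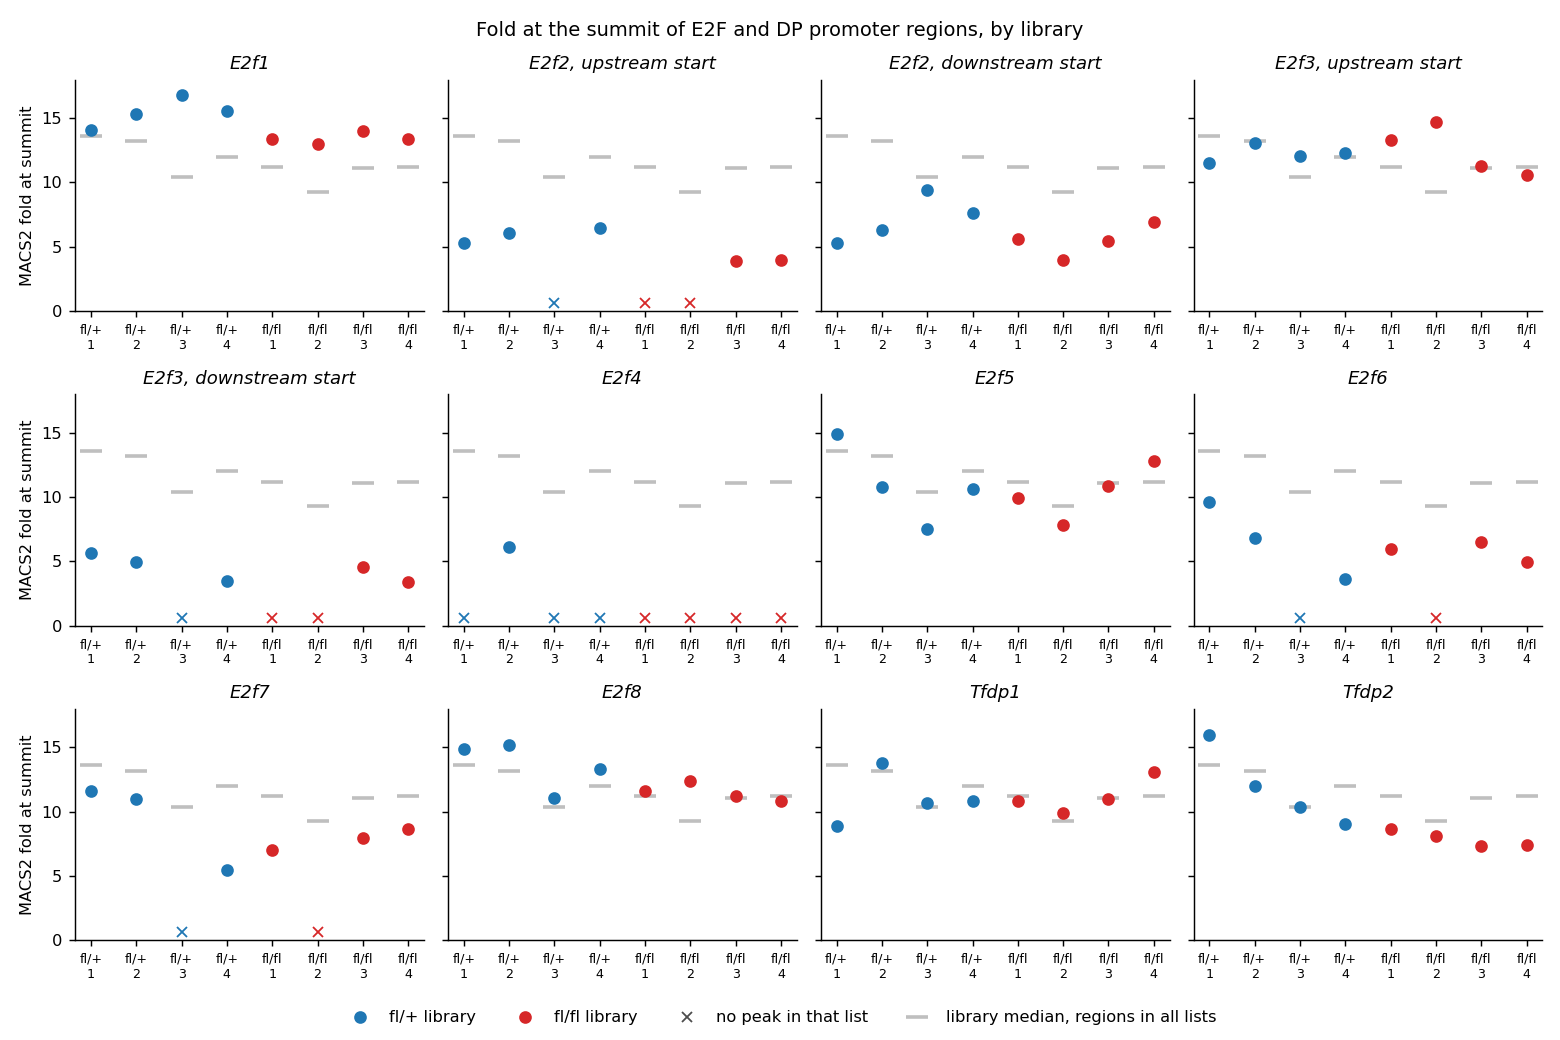
Fold of the summit over local background (y axis, linear, no unit) in each library (x axis, genotype and replicate) for the 12 promoter regions, with crosses where a list held no peak and grey bars for the median of the 4582 regions detected in all 8 libraries. E2f1 stood above the grey bar in all 8 libraries, and the E2f2 downstream start and both regions with 3 crosses stood below it wherever they were detected.

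The fold over local background is given by MACS2 for each peak and is comparable within a list, and library medians of 10.4 to 13.6 in fl/+ and 9.27 to 11.2 in fl/fl were taken out before testing. Over the 7 members with a peak in all 8 libraries the median fold ran from 14.0 at E2f1 and 12.2 at the E2f3 upstream start through 12.0 at E2f8, 10.8 at Tfdp1, 10.7 at E2f5 and 8.88 at Tfdp2 to 5.93 at the E2f2 downstream start. The median of all coding promoter regions detected in all 8 libraries was 11.6. E2f1 lay above 81.2% of these 4130 regions and the E2f2 downstream start above 0.581%. The ranges over libraries of each pair of neighbours in this order overlapped. Within a library, where both are measured against the same reads, the E2f2 downstream start lay below Tfdp2 in 8 of 8 libraries. E2f1 lay above the E2f3 upstream start, E2f8 above Tfdp1 and Tfdp1 above E2f5 in 7 of 8 each. The E2f3 upstream start lay above E2f8, and E2f5 above Tfdp2, in 4 of 8 each.

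Among the activators, E2f1 had the highest fold of the 7 regions in 6 of 8 libraries, the exceptions being fl/+ replicate 1, led by Tfdp2, and fl/fl replicate 2, led by the E2f3 upstream start. Its region, chr2:154569346-154570279, covers the first start at 154569892 and overlaps the gene body. Its folds were 14.1, 15.3, 16.8 and 15.6 in fl/+ and 13.4, 13.0, 14.0 and 13.4 in fl/fl, from 38 to 91 fragments at the summit. All fl/+ folds lay above all fl/fl folds, as at 11.9% of the 4582 regions, but after centring on the library median they ran from 0.04 to 0.68 in fl/+ and from 0.26 to 0.49 in fl/fl on the log2 scale and overlapped. The centred difference, fl/fl minus fl/+, was 0.01 (SE 0.11, 95% interval -0.21 to 0.23; limma with Benjamini-Hochberg adjustment over 4582 regions, adjusted p = 0.966).

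E2f2 had 2 weak promoter regions. At the upstream start (chr4:136172062-136172715) the folds were 5.28, 6.05 and 6.43 in fl/+ replicates 1, 2 and 4 and 3.90 and 3.97 in fl/fl replicates 3 and 4, from 10 to 16 fragments, and no test was made on so few libraries. Both fl/fl folds lay below the 3 fl/+ folds, as they did at 47.8% of the 46 coding promoter regions with a peak in the same 5 libraries. At the downstream start (chr4:136180180-136181225), which the annotation gives to a transcript without a coding sequence, the folds were 5.26, 6.28, 9.41 and 7.66 in fl/+ and 5.58, 3.97, 5.43 and 6.95 in fl/fl. The 2 groups overlapped, and the log2 difference was -0.17 (SE 0.19, 95% interval -0.57 to 0.22; limma, adjusted p = 0.626).

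E2f3 also has 2 starts. At the upstream start (chr13:29986018-29986425) the folds were 11.5, 13.1, 12.1 and 12.3 in fl/+ and 13.3, 14.7, 11.3 and 10.6 in fl/fl, with the groups overlapping, and the log2 difference was 0.22 (SE 0.13, 95% interval -0.04 to 0.48; limma, adjusted p = 0.308). The downstream start (chr13:29984207-29984862), inside the longest transcript, gave weaker folds of 5.63, 4.93 and 3.46 in fl/+ replicates 1, 2 and 4 and 4.54 and 3.36 in fl/fl replicates 3 and 4. These 2 groups overlapped.

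Of the factors that mostly repress, E2f4 was hardly seen. Its promoter region (chr8:105297587-105297888) was a peak in fl/+ replicate 2 alone, at 11 fragments where 0.959 were expected, a fold of 6.12, and 12.2% of the coding promoter regions shared the pattern of 1 fl/+ and 0 fl/fl libraries. The other 7 lists, the longest among them, held no peak there. E2f5, whose region (chr3:14578513-14579137) covers its start, had folds of 14.9, 10.8, 7.48 and 10.6 in fl/+ and 9.96, 7.85, 10.9 and 12.8 in fl/fl. The groups overlapped, with a log2 difference of 0.15 (SE 0.14, 95% interval -0.13 to 0.43; limma, adjusted p = 0.555). E2f6 (chr12:16810743-16811348) gave folds of 9.58, 6.81 and 3.63 in fl/+ replicates 1, 2 and 4 and 5.93, 6.54 and 4.95 in fl/fl replicates 1, 3 and 4. The weakest of these, in fl/+ replicate 4, rested on 6 fragments.

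The 2 atypical repressors differed in how often they were detected. E2f7 (chr10:110745033-110745759) had folds of 11.6, 11.0 and 5.44 in fl/+ replicates 1, 2 and 4 and 6.99, 7.94 and 8.63 in fl/fl replicates 1, 3 and 4. The groups overlapped, and 5.33% of the coding promoter regions shared its pattern of 3 and 3 libraries, as for E2f6. E2f8 (chr7:48880804-48881743), whose region also overlaps the promoter of the antisense gene Gm2788, had folds of 14.9, 15.2, 11.1 and 13.3 in fl/+ and 11.6, 12.4, 11.2 and 10.8 in fl/fl. Those groups overlapped too, and the log2 difference was -0.03 (SE 0.11, 95% interval -0.26 to 0.19; limma, adjusted p = 0.878).

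The DP partners had differences of opposite sign, and neither passed the test by fold. Tfdp1, for DP1 (chr8:13338240-13339180), had folds of 8.85, 13.8, 10.7 and 10.8 in fl/+ and 10.8, 9.88, 11.0 and 13.1 in fl/fl. They overlapped, with a log2 difference of 0.23 (SE 0.14, 95% interval -0.04 to 0.50; limma, adjusted p = 0.304), which was 0.08 without fl/+ replicate 1. Tfdp2, for DP2 (chr9:96195991-96196544), had folds of 16.0, 12.0, 10.4 and 9.06 in fl/+ and 8.69, 8.10, 7.36 and 7.40 in fl/fl. All fl/+ folds lay above all fl/fl folds, as at 11.9% of the 4582 regions, but the centred values overlapped. The log2 difference was -0.36 (SE 0.15, 95% interval -0.66 to -0.06; limma with Benjamini-Hochberg adjustment, adjusted p = 0.138). Unadjusted, the limma p over 4582 regions was 0.0212. Without fl/+ replicate 1 the difference was -0.25.

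Over the 7 members tested by fold, 0 were lower and 0 higher in fl/fl in limma at an adjusted p under 0.05, with 1 (Tfdp2) under 0.05 unadjusted. Among all 4582 regions, 2.18% were lower and 3.38% higher, and 448 and 606 passed without adjustment. These regions include 338 outside promoters, of which 8 were lower and 54 higher. In a fit on the 4244 promoter regions alone, 83 were lower and 95 higher. The median difference was 0.01 over the members and 0.029 over all regions. The centred fl/+ folds lay above all fl/fl folds at 4.67% of the regions and the fl/fl folds above at 8.56%, and at 0 members in either direction. With libraries joined in pairs 0 members passed.

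A fold divides the summit by the background near it, so the number of fragments at the summit, solved from the fold and the −log10 p of each peak, was tested as well. On log2(fragments + 1), centred on the library median, 1 member was lower (Tfdp2) and 1 higher (Tfdp1) in fl/fl, against 3.58% and 9.24% of the 4558 regions with a value. Tfdp1 held 40, 40, 21 and 27 fragments in fl/+ and 53, 24, 49 and 57 in fl/fl. After centring these were -0.95, -0.31, -0.13 and -0.40 against 0.17, 0.12, 0.22 and 0.43, so that each fl/fl library lay above each fl/+ library, as at 11.1% of the regions (4.74% for fl/+ above). The difference was 0.68 (SE 0.16, 95% interval 0.36 to 1.01; limma with Benjamini-Hochberg adjustment, adjusted p = 0.00404), or 0.52 to 0.79 without each library in turn, with adjusted p of at most 0.0343, and with libraries joined in pairs the adjusted p was 0.00370.

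Tfdp2 held 72, 38, 19 and 21 fragments in fl/+ and 27, 14, 19 and 18 in fl/fl. The centred values were -0.11, -0.39, -0.26 and -0.75 against -0.78, -0.62, -1.10 and -1.18 and overlapped. The difference was -0.54 (SE 0.19, 95% interval -0.92 to -0.16; limma with Benjamini-Hochberg adjustment, adjusted p = 0.0491). It did not pass without fl/+ replicate 1, 2 or 3 (adjusted p = 0.166, 0.100 and 0.0918) or fl/fl replicate 1, 3 or 4 (0.0696, 0.127 and 0.147), and not with libraries joined in pairs (0.0808). The expected background at the Tfdp1 summit was 3.63, 1.97, 1.05 and 1.60 fragments in fl/+ and 4.01, 1.53, 3.55 and 3.44 in fl/fl, and at Tfdp2 3.56, 2.26, 0.927 and 1.43 against 2.22, 0.852, 1.72 and 1.57. The background of the whole library was 1.30, 0.806, 0.541 and 0.735 in fl/+ and 1.67, 0.783, 1.46 and 1.38 in fl/fl. The part of the local background in the 2 results was not tested.

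**Figure D3:**
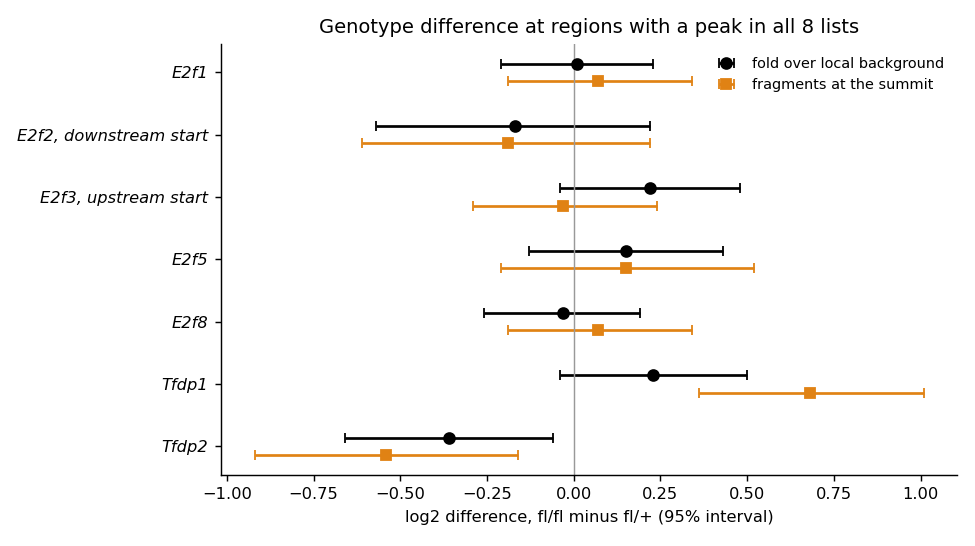
Difference between genotypes in log2 (x axis, fl/fl minus fl/+) for the 7 promoter regions with a peak in all 8 libraries (rows), with 95% intervals, from the fold (black circles) and from fragments at the summit (orange squares). By fold only the interval of Tfdp2 lies off 0, from -0.66 to -0.06, and by fragments those of Tfdp1 (0.36 to 1.01) and Tfdp2 (-0.92 to -0.16) do.

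**Figure D4:**
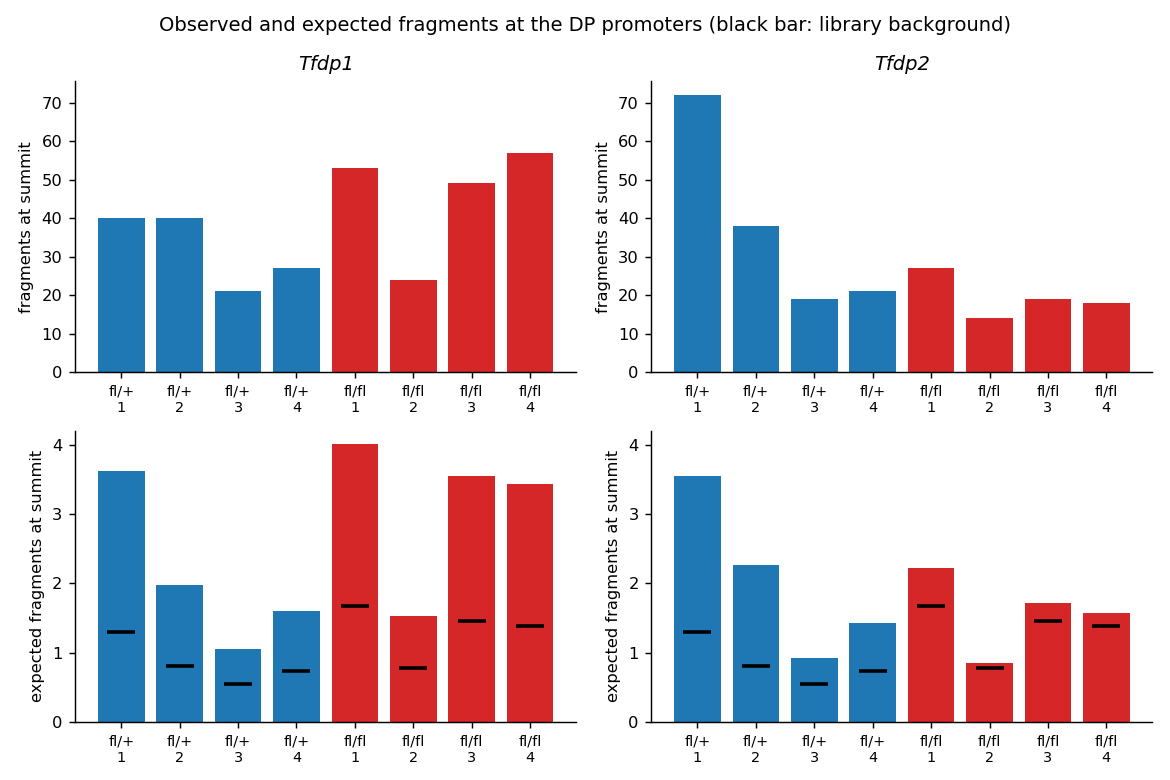
Fragments at the summit (upper row, linear y axis from 0) and the fragments expected there from local background (lower row) in each library (x axis) at Tfdp1 (left) and Tfdp2 (right), fl/+ in blue and fl/fl in red, with a black mark for the background of the whole library. At Tfdp2 the fl/+ bars of replicate 1 (72 fragments) and replicate 2 (38) stand above the 4 fl/fl bars (14 to 27). Those of fl/+ replicates 3 (19) and 4 (21) lie within the fl/fl range. The bars are not corrected for depth, and the centred values of the 2 genotypes overlapped.

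The 5 regions away from the promoters lay at 4 members. Of these, 3 are promoters of neighbouring genes: the E2f4 region (chr8:105289065-105289792), 7871 bp outside the gene, holds the promoters of 4931428F04Rik and Gm20163; the E2f5 region (chr3:14611121-14611715), 4812 bp outside, that of 1810022K09Rik; and an E2f2 region (chr4:136205965-136206560), 9908 bp outside, that of Asap3. The E2f4 and E2f5 regions were detected in all 8 libraries and differed by 0.26 (SE 0.11, 95% interval 0.03 to 0.49; limma, adjusted p = 0.163) and -0.12 (SE 0.11, 95% interval -0.35 to 0.11; limma, adjusted p = 0.546) in log2. The remaining 2 are no promoter of any gene. One lies inside E2f2 (chr4:136177442-136178155), with a peak in 3 fl/+ and 4 fl/fl libraries and folds of 4.25 to 5.62 and 3.16 to 5.81. The other, 4258 bp outside Tfdp1 (chr8:13382706-13383042), was found in fl/+ replicate 1 alone, at 8 fragments.

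Of these 5 regions the libraries detected 3 to 5 each, 80.0 ± 16.3% in fl/+ and 75.0 ± 10.0% in fl/fl (SD, n = 4), a difference of -5.00 percentage points (two-sided exact permutation test, p = 1.00). Over the 6188 combined regions outside promoters the values were 35.4 ± 27.1% and 22.7 ± 6.17% (exact permutation test, p = 0.486, n = 4). These sets are unlike, since 3 of the 5 regions near members are promoters of neighbouring genes, so their levels cannot be compared. The other 6 members had no region but their promoters.

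The partners and targets of E2F were read in the same way. Pocket proteins, with MuvB, hold E2F targets off in resting cells. Of 10 genes in this list, which also held Mybl2 and Foxm1, 5 had a promoter region in all 8 libraries. Of these, 0 were lower and 0 higher in fl/fl (median log2 difference 0.17). Of 18 cyclins, CDKs and their inhibitors 9 were tested, with 1 lower and 0 higher (median 0.13). That gene was Ccnb1, the cyclin B1 of mitosis, at -0.60 (SE 0.13; limma, adjusted p = 0.00545). Of 30 E2F target genes 16 were tested, with 0 lower in fl/fl (median -0.08). These counts stand beside the 2.18% and 3.38% of all regions, and the counts for promoter regions alone, given above.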

How the data were processed

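ATAC-seq was analysed in 8 libraries grouped by the genotype in the sample labels, and 8 RNA-seq libraries were not analysed here. The authors aligned reads to mm10 (GRCm38) with Bowtie2, then ran MACS2 on each library alone; versions and options, duplicate handling and any transposase shift are not given in the sources used here. The deposited lists give, per peak, an integer score, a fold (a ratio of the summit to local background) and 2 significance columns, −log10 p and −log10 q, all of which depend on depth. The authors' DESeq2 comparison of coverage is not in the lists. The members and the pathway lists were chosen with earlier results of these data known.

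Regions are joined overlapping or touching peaks on chromosomes 1 to 19, X and Y, placed by the GENCODE M21 annotation. In each region the highest fold of each library was used. The fit was limma 3.58.1 (R 4.3.3, trend) on log2 fold minus the library median, with Benjamini-Hochberg adjustment over the 4582 regions with a peak in all 8 libraries, and threshold 0.05. Fragments at the summit were solved from fold and −log10 p to within 0.002 of the deposited −log10 p (at least 99.7% of peaks per library) and tested with a pseudocount of 1. Detection was tested over all 70 assignments of libraries. All members are named, and at most 3 genes per direction of each list. Alternatives were stricter lists (−log10 q no lower than 5 or 10), equal list lengths, 50% coverage of a region, other promoter windows (2000 bp upstream to 500 bp downstream, region centres, coding starts), 50 kb around a gene, a joining gap of 500 bp, quantile normalization, promoter regions only, each library left out, the replicate block and joined pairs. Leaving libraries out, blocking and joining on fragments were alternatives chosen after seeing the data. A planned protein comparison was not run, and 1 call in the E2F target list and 1 sequence are not reported here. Software: samtools 1.23.1, Python 3.11.15, matplotlib 3.10.9, pysam 0.24.0, scipy 1.17.1, numpy 2.4.6, pandas 2.3.3. Sequences are from RefSeq (GRCm38.p6).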

Additional observations from a re-analysis of the deposited data

Results flagged for a closer look

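In fl/fl replicate 2, 7 members had a promoter peak, while the 3 other fl/fl libraries had 9 each, a gap equal to the whole range of the group. E2f6, E2f7 and E2f4 were those it lacked, and its list was the shortest, with 6271 peaks. Of 20 groups of 4 libraries tested for a sample far from the others, 1 was flagged. Where 3 counts in a group are equal, any departure of the other is flagged, so a chance rate of about 1 in 20 does not apply here. In fl/+ replicate 3 there were also 7 members with a promoter peak, without a flag.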

How the results depend on the processing

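Alternatives kept 0 members lower and 0 higher in fl/fl except fragments at the summit, with 1 lower and 1 higher; a −log10 q of at least 10 left 4 member regions tested. The number of members with a promoter peak kept its direction except with a −log10 q of at least 5 (0), equal list lengths (1.25, exact permutation test, p = 0.114) and 50% coverage (1.25, p = 0.686 by the same exact test), and without each library in turn it ran from -0.833 to 0.25. The other regions gave 6.25 points with equal lengths and -11.7 to 2.08 without each library. Over all regions, lower and higher counts of 100 and 155 became 163 and 421 by fragments, 31 and 40 with libraries joined in pairs, and 30 to 128 and 47 to 285 without each library. With promoter regions only, 83 of 4244 were lower and 95 higher. Small differences changed sign: E2f1 at a −log10 q of at least 10 (-0.03), by quantile normalization (-0.01) and without single libraries (-0.08 to 0.15), E2f3 (-0.03) and E2f8 (0.07) by fragments, and without single libraries E2f8 (-0.12 to 0.02) and E2f2 (-0.36 to 0.06). The cause was not tested. With the replicate block the differences were -0.250 members and -5.00 points, with 0 members called and 91 lower and 118 higher regions, so the block changed no call of a member. No pairing by number was visible. For fl/+ and fl/fl libraries of the same number, deviations correlated across regions at -0.09 to 0.01, and 0 of 4 correlated best with their own number. These correlations cannot show whether libraries of the same number were prepared together, which the labels do not say. Of the 12 promoter regions 5 were not seen in every list, which does not show them closed there, and intervals cover the spread between libraries only.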
